A study of Mus musculus with 4 samples.

Results

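Endothelial cells line the blood and lymphatic vessels, and 35 genes typical of them were examined in the autopod, the outermost piece of the embryonic limb, from which digits and wrist or ankle arise. The members are a named list, and each was read by the probe set that the platform annotation assigns to that gene alone, taking the brightest by mean log2 signal over the arrays where there were several. All 35 had such a probe set and passed the filter on dim probe sets, among 13072 genes that did so in the whole table. The 2 Hox13dKO samples came from C57BL/6 embryos at E11.25 that carry the Hoxa13 null allele on both chromosomes and, also on both, the deletion of Hoxd11, Hoxd12 and Hoxd13. The 2 control samples came from wild-type C57BL/6 embryos of the same stage. Fore- and hindlimb pieces of the Hoxd13 expression domain were combined, the titles call the samples biological replicates, and no source used here says how many embryos entered one. The comparison asks what differs in an autopod with these 4 distal Hox genes targeted. The labels name no tissue-restricted driver for either allele.

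The limb bud is vascularised by endothelial cells that migrate in from the somites and form a capillary plexus, which later withdraws from the sites of cartilage condensation. Vascular endothelial growth factors (VEGFs) act on the plexus through the receptor tyrosine kinases encoded by Kdr, Flt1 and Flt4, and angiopoietins act through the receptor encoded by Tek. Transcription factors of the ETS and SOX families switch on the genes of the endothelium, among them those of the junctions that seal neighbouring cells.

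In Hox13dKO autopods, more endothelial genes had a mean log2 signal above wild type than below it, and none of them passed the test. Of the 35 genes, 0 passed an adjusted p of 0.05 in limma's test (0 higher, 0 lower), where 0.306% of all genes tested did. With eBayes without an intensity trend and with robust eBayes the count was also 0, and it was 1 (Sox18) without wild type replicate 2. At an unadjusted p under 0.05 there were 6, all with higher signal in Hox13dKO (Sox18, Cdh5, Icam2, Kdr, Esam and Clec14a), or 17.1% of the members. The share of all genes at that level was 7.25%, and 4.26% with a higher signal in Hox13dKO. Leaving out wild type replicate 2 gave 10 in place of 6, leaving out Hox13dKO replicate 2 gave 2, and a fit with no intensity trend or no filter gave 3. The log2 difference, Hox13dKO minus wild type, was positive for 25 of the 35 members, and for 45.8% of all genes tested. Its median was 0.15 over the members, with quartiles at -0.09 and 0.48, and -0.03 over all genes, with quartiles at -0.20 and 0.16. The extremes among the members were -0.61 for Angpt2 and 0.94 for Lyve1.

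Array by array, 11 of the 35 members (31.4%) had both Hox13dKO signals above both wild-type signals, as did 17.1% of all genes. They were Sox18, Sox7, Sox17, Kdr, Flt1, Cdh5, Icam2, Esam, Plvap, Clec14a and Ets2. The opposite separation was seen in 3 members (Ets1, Erg and Ramp2), or 8.57%, and in 20.1% of all genes. Separation in either direction thus held for 14 members (40%) and 37.2% of all genes, a like share, and the remaining 21 members overlapped between the groups. The count of 11 was 17 without wild type replicate 1, when it was 30.9% for all genes, and 18 without wild type replicate 2, when it was 33.2% for all genes. These counts describe the members and carry no test. In tissue RNA, more or fewer endothelial cells cannot be told apart from more or less RNA of these genes per cell.

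**Figure D1:**
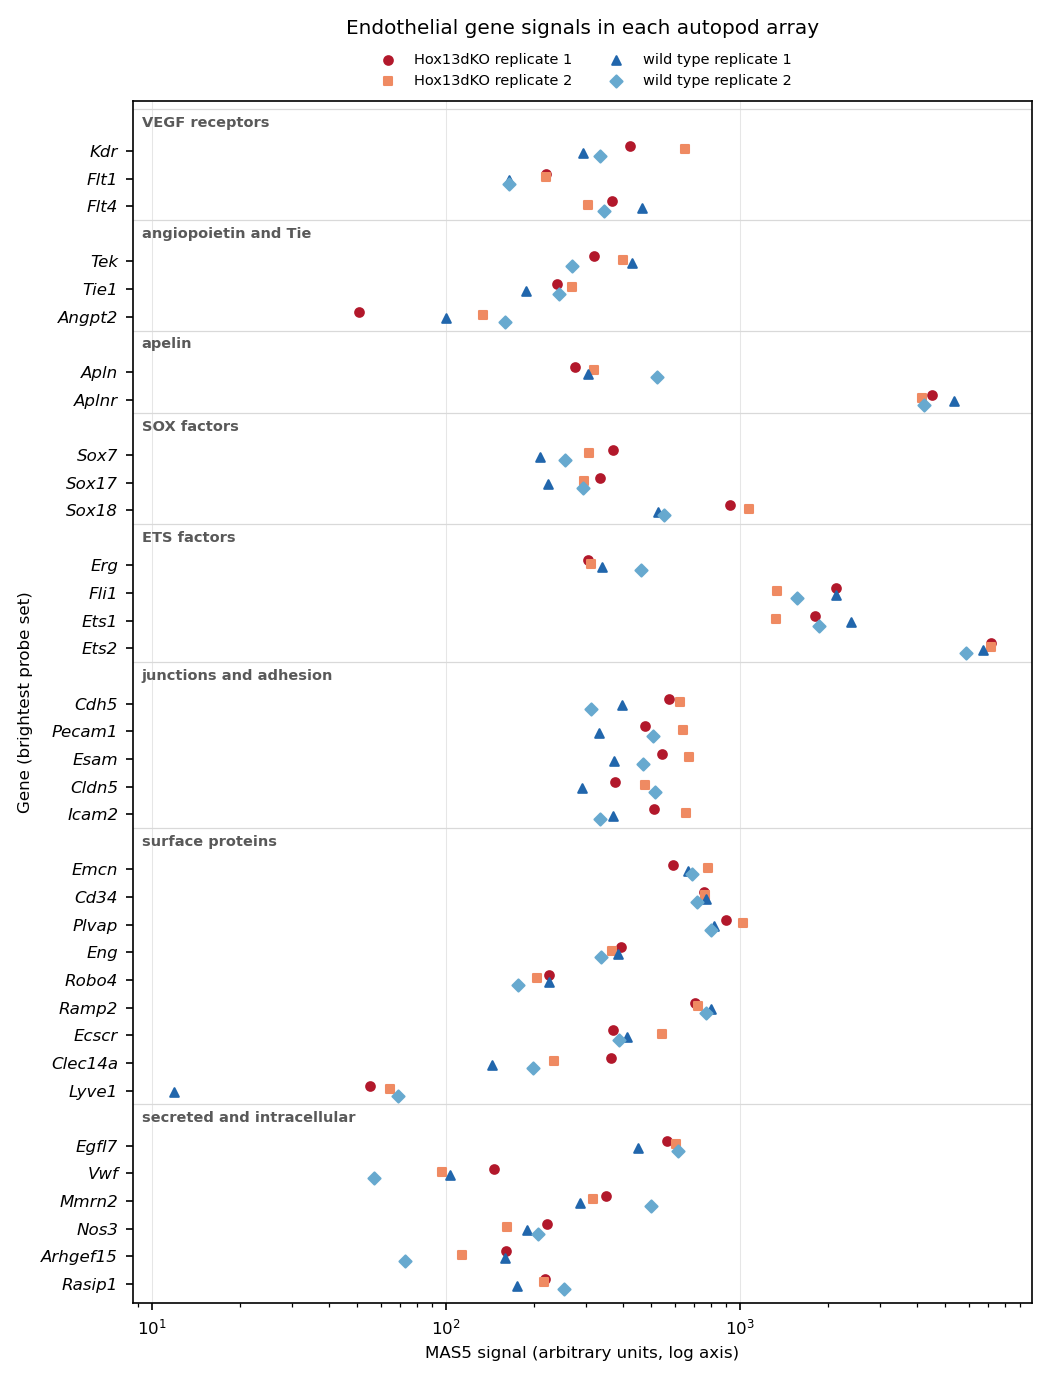
MAS5 signal (arbitrary units, log axis) of each endothelial gene's brightest probe set in the 2 Hox13dKO arrays (red circle, orange square) and the 2 wild-type arrays (dark blue triangle, light blue diamond), grouped by role; signals of different genes are not comparable with each other. The red and orange points lie right of both blue points for 11 genes, Sox18 and Cdh5 among them, and left of both for Erg, Ets1 and Ramp2.

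**Figure D2:**
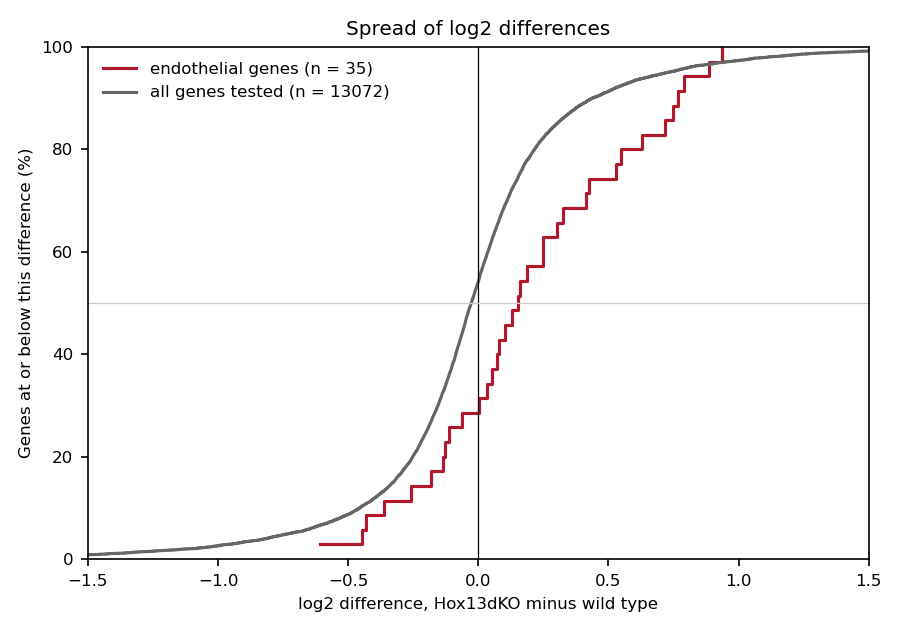
Cumulative share of genes (%) at or below a given log2 difference, Hox13dKO minus wild type, for the 35 endothelial genes (red) and the 13072 genes tested (grey), shown from -1.5 to 1.5. The red line crosses 50% at 0.15 and the grey line at -0.03.

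The VEGF receptor genes are shown with the sequence before their start sites, because they are the receptors through which the plexus grows and because Flt1 had the widest spread among its probe sets. The sequences are the 250 bases upstream of the transcription start in RefSeq (GRCm38.p6), 5′ to 3′ on the gene's strand. Capitals mark GGAAG or its reverse complement CTTCC, 1 form of the sequence bound by ETS factors. Other GGAA letters in these windows were not marked or counted. Kdr lies at chr5:75978456-75978705 (minus strand), Flt1 at chr5:147726012-147726261 (minus strand) and Flt4 at chr11:49609429-49609678 (plus strand).
Kdr: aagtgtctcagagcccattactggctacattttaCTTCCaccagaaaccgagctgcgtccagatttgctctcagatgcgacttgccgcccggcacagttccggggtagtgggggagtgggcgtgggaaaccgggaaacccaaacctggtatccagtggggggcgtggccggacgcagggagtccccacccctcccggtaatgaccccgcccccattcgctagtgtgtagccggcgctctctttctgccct
Flt1: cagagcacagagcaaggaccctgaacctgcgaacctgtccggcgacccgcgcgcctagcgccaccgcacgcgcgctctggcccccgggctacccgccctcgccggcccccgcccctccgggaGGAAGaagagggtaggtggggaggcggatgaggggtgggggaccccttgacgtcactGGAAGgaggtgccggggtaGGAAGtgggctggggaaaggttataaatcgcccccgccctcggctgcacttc
Flt4: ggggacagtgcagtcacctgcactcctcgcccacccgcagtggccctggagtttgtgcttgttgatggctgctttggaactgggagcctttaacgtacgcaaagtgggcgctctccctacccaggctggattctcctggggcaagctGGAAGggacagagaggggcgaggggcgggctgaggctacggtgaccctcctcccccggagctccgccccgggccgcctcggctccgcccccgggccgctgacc
The Flt1 window held 3 GGAAG matches and 1 cyclic AMP response element (TGACGTCA, which is its own reverse complement). The Kdr and Flt4 windows held 1 GGAAG match each, on either strand. Of the 35 members 16 had a promoter in the table, and 13 of these 16 (81.2%) held a GGAAG on either strand. The same letters occur in 66.9% of all genes with a promoter in the table, so most promoters hold them. A SOX motif, AACAAT or ATTGTT, occurred in 3 of the 16 members and in 10.9% of all genes. A match of letters is a description and not a binding site.

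Among the receptors, Kdr, which encodes the main signalling VEGF receptor of blood vessel endothelium, had signals of 424 and 652 in Hox13dKO, against 294 and 334 in wild type. The groups did not overlap, and the log2 difference was 0.75 ± 0.26 (SE; limma adjusted p = 0.639). Flt1, whose product binds VEGF as a decoy as well as a receptor, read 219 and 218 in Hox13dKO, against 164 and 165 in wild type, a log2 difference of 0.41 ± 0.29. Its replicates lay closer together than those of any other VEGF receptor gene, yet the moderated error of the fit borrows from probe sets of like signal and kept the adjusted p at 0.920. Flt4, the receptor for VEGF-C that marks lymphatic and sprouting endothelium, read 368 and 304 in Hox13dKO, against 463 and 345 in wild type. Those groups overlapped (log2 difference -0.26 ± 0.25).

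Other probe sets of Flt1 gave larger differences than the brightest one. One read 155 and 289 in Hox13dKO, against 103 and 57.1 in wild type (1.47 ± 0.47 SE). Another read 172 and 230 in Hox13dKO, against 76.9 and 127 in wild type (1.01 ± 0.40 SE). The dimmest read 112 and 363 in Hox13dKO, against 14.9 and 88.4 in wild type (2.48 ± 0.89 SE), with 1 wild-type array close to the signal floor of 14.1. All 4 Flt1 probe sets thus had both Hox13dKO arrays above both wild-type arrays, with adjusted p from 0.557 to 0.920. Flt1 makes membrane-bound and soluble proteins from alternative transcripts, and which of them each probe set reads was not tested. When a gene's probe sets were averaged instead, the log2 difference of Flt1 was 1.34.

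Of the angiopoietin system, all 3 genes overlapped between the groups. Tek, the angiopoietin receptor that stabilises vessels, read 319 and 401 in Hox13dKO, against 429 and 270 in wild type, and the wild-type arrays lay outside the Hox13dKO arrays on both sides. Tie1, its orphan partner receptor, read 239 and 269 in Hox13dKO, against 188 and 242 in wild type (0.25 ± 0.28 SE). Angpt2, the ligand that loosens vessels for sprouting, read 50.6 and 134 in Hox13dKO, against 99.7 and 158 in wild type. Its log2 difference of -0.61 had an SE of 0.56, and it was 0.09 without Hox13dKO replicate 1.

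Apelin and its receptor were measured on the lower side, without separation. Apln, the peptide ligand expressed by tip cells, read 274 and 319 in Hox13dKO, against 304 and 522 in wild type (-0.43 ± 0.30 SE). Most of that difference lay in 1 array, since it was -0.04 without wild type replicate 2. Aplnr, the receptor of venous and migrating endothelium, read 4516 and 4171 in Hox13dKO, against 5333 and 4212 in wild type (-0.13 ± 0.15 SE). A second Aplnr probe set, at 399 and 464 in Hox13dKO, against 537 and 545 in wild type, separated the groups (-0.33 ± 0.20 SE; adjusted p = 0.900).

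The SOXF genes, which encode the closely related transcription factors of arterial, lymphatic and general vascular identity, had both Hox13dKO arrays above both wild-type arrays in 3 of 3 cases, as did 17.1% of all genes. Sox18, which starts lymphatic specification, read 922 and 1078 in Hox13dKO, against 527 and 553 in wild type. Its log2 difference of 0.88 ± 0.18 (SE), a ratio of 1.85, had the lowest p of the 35 members (adjusted p = 0.162), with a 95% interval from 0.48 to 1.29. It passed the threshold without wild type replicate 2 (adjusted p = 0.0360) and did not without any other array. Sox7 read 371 and 307 in Hox13dKO, against 209 and 255 in wild type (0.55 ± 0.26 SE; adjusted p = 0.850). Sox17, needed in arteries, read 334 and 296 in Hox13dKO, against 222 and 293 in wild type (0.30 ± 0.27 SE), so that the nearest arrays of the groups were almost level. Another Sox17 probe set read 164 and 273 in Hox13dKO, against 121 and 131 in wild type (0.75 ± 0.37 SE).

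Of the 4 ETS genes, 3 had negative differences and 1 a positive one, as did 45.8% of all genes. Ets1, expressed in endothelium and also in mesenchyme, read 1796 and 1322 in Hox13dKO, against 2380.4 and 1853 in wild type (-0.45 ± 0.20 SE; adjusted p = 0.809). The groups were separated by the narrow gap between Hox13dKO replicate 1 and wild type replicate 2, and the other 3 Ets1 probe sets gave -0.47, -0.02 and -0.20. Erg, a factor restricted mainly to endothelium and cartilage, read 304 and 313 in Hox13dKO, against 341 and 461 in wild type (-0.36 ± 0.25 SE). Fli1, its close relative that is also active in blood cells, read 2125 and 1337 in Hox13dKO, against 2126 and 1564 in wild type, with replicates of 1 group farther apart than the groups. Its second probe set had the opposite sign (0.17 ± 0.21 SE). Ets2, a widely expressed effector of Ras signalling, read 7133 and 7152 in Hox13dKO, against 6732 and 5858 in wild type (0.19 ± 0.13 SE).

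**Figure D3:**
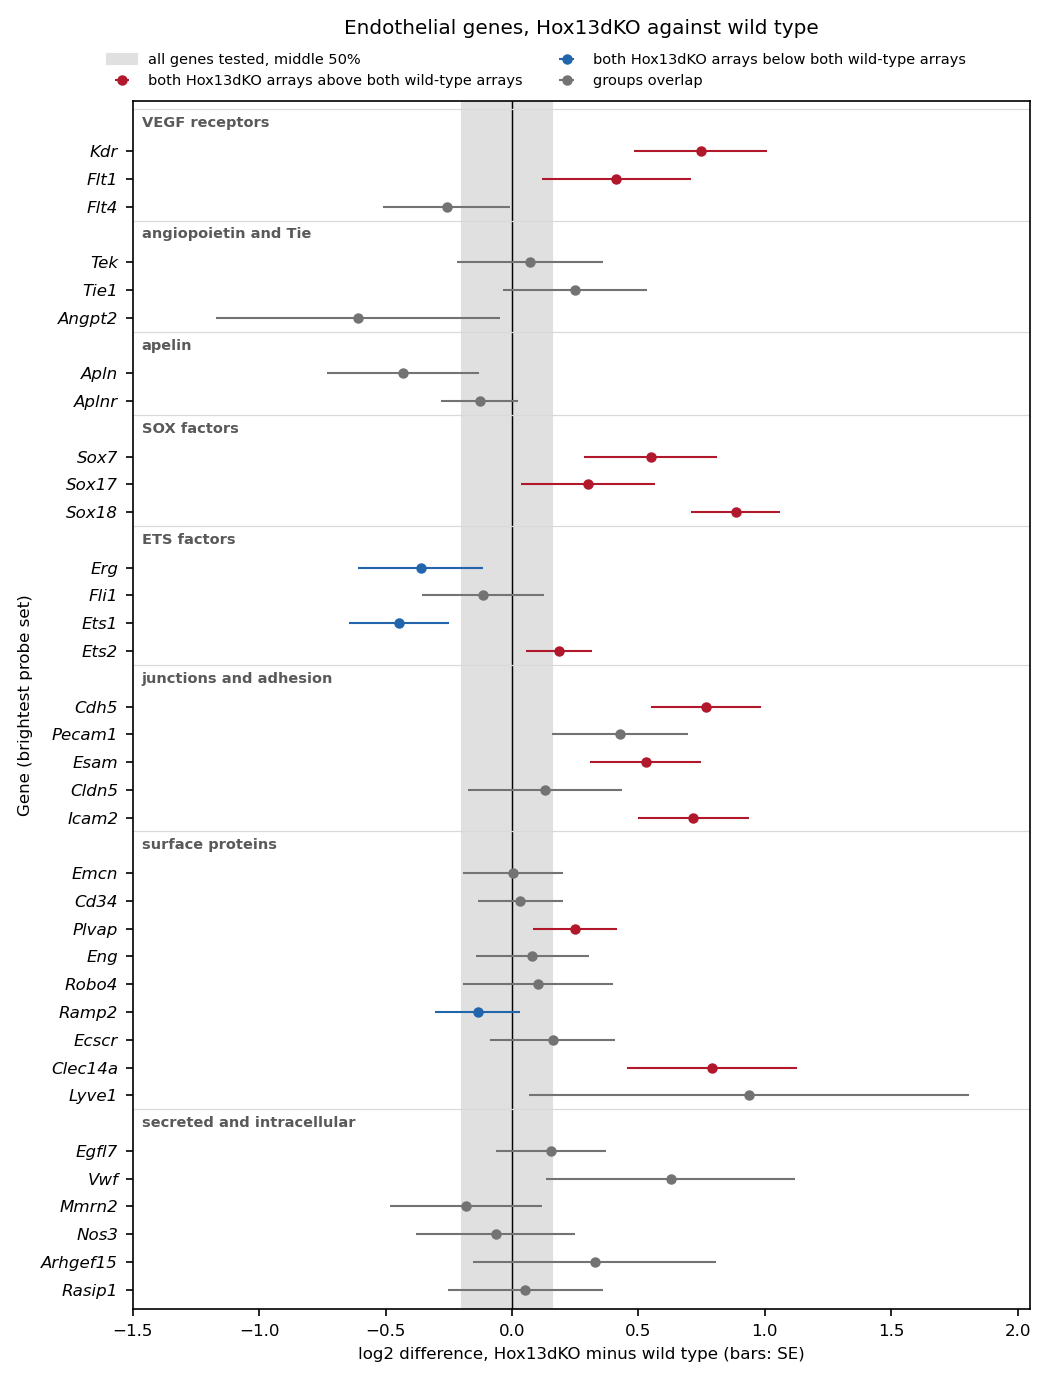
Log2 difference, Hox13dKO minus wild type, of each endothelial gene with its SE, grouped by role; red marks genes with both Hox13dKO arrays above both wild-type arrays, blue the opposite and grey overlapping groups, and the shaded band runs between the quartiles of all genes tested (-0.20 to 0.16). The 3 SOX genes, Cdh5, Icam2, Esam and Kdr are among those right of the band, while Angpt2, Apln, Ets1, Erg and Flt4 lie left of it.

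Of 5 genes of endothelial junctions and adhesion, 5 had positive differences (45.8% of all genes did) and 3 separated upward (17.1% of all genes did). Cdh5, which encodes VE-cadherin, the adhesion molecule of endothelial adherens junctions, read 572 and 627 in Hox13dKO, against 397 and 312 in wild type. The arrays of the groups were well apart, by 0.77 ± 0.22 in log2 (SE), with a 95% interval from 0.27 to 1.27 and an adjusted p of 0.420. A dim second Cdh5 probe set overlapped between the groups (0.36 ± 0.81 SE). Icam2, an adhesion molecule at the same contacts and on platelets, read 511 and 655 in Hox13dKO, against 370 and 334 in wild type (0.72 ± 0.22 SE; adjusted p = 0.516). Esam, a tight junction protein of endothelium and platelets, read 545 and 669 in Hox13dKO, against 374 and 468 in wild type (0.53 ± 0.22 SE).

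Pecam1, the adhesion molecule CD31 used to stain vessels, did not separate. It read 475 and 643 in Hox13dKO, against 333 and 508 in wild type, so wild type replicate 2 lay between the Hox13dKO arrays (0.43 ± 0.27 SE; adjusted p = 0.904). With 1 array left out the difference ran from 0.12 to 0.73. Cldn5, the claudin of tight endothelial barriers, read 375 and 477 in Hox13dKO, against 290 and 516 in wild type. The wild-type arrays again enclosed both Hox13dKO arrays.

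Of the 9 surface proteins, 8 had positive differences (45.8% of all genes did) and 0 passed. Of the 9, 2 separated upward (22.2%, beside 17.1% of all genes) and 1 downward (11.1%, beside 20.1%). Emcn, a sialomucin of venous and capillary endothelium, read 592 and 779 in Hox13dKO, against 664 and 690 in wild type, with the smallest log2 difference of the 35 (0.004 ± 0.199 SE, 95% interval -0.45 to 0.46). Cd34, a sialomucin of endothelium and blood progenitors, read 752 and 759 in Hox13dKO, against 766 and 713 in wild type, with a 95% interval from -0.36 to 0.42. For both genes a change of 2-fold, 1 unit of log2, lay outside the interval. Eng, the TGF-beta co-receptor endoglin, read 395 and 366 in Hox13dKO, against 386 and 336 in wild type, and its second probe set read 126 and 139 in Hox13dKO, against 86.3 and 86.5 in wild type (0.61 ± 0.40 SE). The brightest Eng probe set overlapped and the other did not.

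Clec14a, a C-type lectin of sprouting endothelium, read 365 and 233 in Hox13dKO, against 143 and 197 in wild type (0.79 ± 0.34 SE; adjusted p = 0.787). Plvap, the protein of the diaphragms of fenestrated capillaries, read 900.3 and 1025 in Hox13dKO, against 819 and 798 in wild type (0.25 ± 0.17 SE). Both genes separated upward, Plvap by a small margin. A second Clec14a probe set overlapped between the groups, at 82.9 and 105 in Hox13dKO, against 52.2 and 98.9 in wild type (0.38 ± 0.52 SE). Ramp2, the co-receptor for adrenomedullin, was the surface gene that separated downward, at 706 and 719 in Hox13dKO, against 799 and 767 in wild type (-0.14 ± 0.17 SE).

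Robo4, a receptor that keeps vessels tight, read 224 and 203 in Hox13dKO, against 224 and 176 in wild type. Ecscr, a surface regulator of endothelial migration, read 371 and 544 in Hox13dKO, against 415 and 389 in wild type. Lyve1, the hyaluronan receptor of lymphatic endothelium and some macrophages, read 55.0 and 64.7 in Hox13dKO, against 11.9 and 68.8 in wild type. The largest log2 difference of the list, 0.94 for Lyve1, rested on wild type replicate 1, which lay below the floor and was raised to it. It had an SE of 0.87 and was -0.21 without that array.

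The secreted and intracellular members all overlapped between the groups. Egfl7, a matrix protein that guides vessel tubes, read 566 and 606 in Hox13dKO, against 451 and 615 in wild type, and its other probe sets differed in both directions (-0.23, -0.38 and 0.24). Vwf, the clotting factor carrier stored in endothelium and platelets, read 146 and 96.7 in Hox13dKO, against 103 and 57.1 in wild type (0.63 ± 0.49 SE). Mmrn2, the matrix partner of the Clec14a protein, read 351 and 316 in Hox13dKO, against 286 and 500 in wild type (-0.18 ± 0.30 SE). The wild-type arrays lay outside both Hox13dKO arrays. Nos3, the endothelial nitric oxide synthase, read 221 and 161 in Hox13dKO, against 189 and 206 in wild type. Arhgef15, an intracellular signalling protein of endothelium, read 160 and 114 in Hox13dKO, against 159 and 72.6 in wild type. Rasip1, needed for vessel lumens, read 218 and 216 in Hox13dKO, against 174 and 252 in wild type, where the wild-type arrays enclosed the Hox13dKO arrays.

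**Figure D4:**
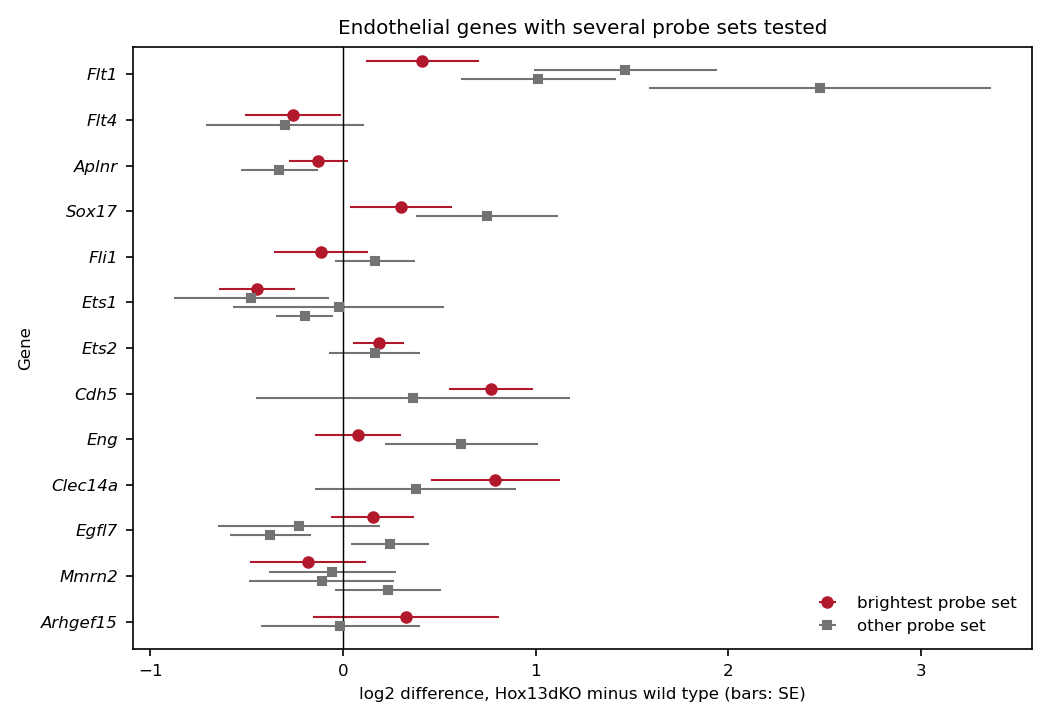
Log2 difference, Hox13dKO minus wild type, with SE for every tested probe set of the 13 endothelial genes that have several, with the brightest as a red circle and the others as grey squares. The Flt1 probe sets run from 0.41 to 2.48, and those of Egfl7, Fli1, Mmrn2 and Arhgef15 fall on both sides of 0.

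Over the whole list, the 35 members had 62 probe sets of their own, of which 56 were tested. Beside the 35 brightest, 16 of the other 21 tested probe sets had the same sign as the brightest of their gene and 5 the opposite one. Replicates of a group differed as much as the groups did for many members: the median fold between replicates was 1.18 in Hox13dKO and 1.28 in wild type, beside 1.17 and 1.18 over all genes. Wild type replicate 1 was the lowest of the 4 arrays for 14 members (40%, beside 24.5% of all genes), and Hox13dKO replicate 2 the highest for 11 (31.4%, beside 24.7%).

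Genes of the pathways around the members gave the following. Of 7 VEGF ligands and co-receptors, 0 passed in either direction and the median log2 difference was 0.23. The difference was positive for 4 of them (45.8% of all genes). It was negative for Pgf (-0.38 ± 0.47 SE), Nrp1 (-0.12 ± 0.21 SE) and Nrp2 (-0.01 ± 0.20 SE). The geometric mean signal of the 7 was 718 and 922 in Hox13dKO, against 719 and 696 in wild type, so the groups overlapped. Vegfd, a ligand of the Flt4 receptor, read 728 and 907 in Hox13dKO, against 466 and 586 in wild type (0.64 ± 0.21 SE; adjusted p = 0.569). Vegfc, the main lymphatic ligand, read 599 and 635 in Hox13dKO, against 574 and 290 in wild type (0.59 ± 0.31 SE). Vegfa, the ligand of the Kdr receptor, had a log2 difference of 0.46 ± 0.35. Both Hox13dKO arrays lay above both wild-type arrays for Vegfd and Vegfc, and for 3 of the 7 in all, beside 17.1% of all genes.

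In the list of further arterial, venous, lymphatic and signalling genes, 23 of 27 were measured, 0 passed upward and 1 passed downward, with a median log2 difference of 0.01. Both Hox13dKO arrays lay above both wild-type arrays for 9 of the 23 (39.1%, beside 17.1% of all genes) and below them for 2 (8.70%, beside 20.1%). The list's geometric mean signal was 343 and 358 in Hox13dKO, against 303 and 310.3 in wild type. The gene that passed was Lmo2, which encodes a LIM-only partner of the Tal1 factor in blood and endothelial precursors. Tal1 itself had a log2 difference of 0.55 ± 0.27 (SE), with both Hox13dKO arrays above both wild-type arrays and an adjusted p of 0.860. Which cells of the autopod the Lmo2 RNA came from was not tested. Lmo2 read 864 and 852 in Hox13dKO, against 2368 and 1923 in wild type, a log2 difference of -1.31 ± 0.16 (SE; adjusted p = 0.0343), or 2.49-fold lower. Both Hox13dKO arrays were far below both wild-type arrays. Lmo2 had 1 probe set of its own. The Lmo2 call held after quantile normalization (adjusted p = 0.0271), with the stricter filter (0.0368) and with robust eBayes (0.0317). Its call did not hold without Hox13dKO replicate 1 (adjusted p = 0.202), without Hox13dKO replicate 2 (0.228), after median centring (0.0727), with no filter (0.321) or with no intensity trend (0.591), while the log2 difference in those settings stayed between -1.32 and -1.28. Nr2f2, the COUP-TFII factor of venous identity that limb mesenchyme also expresses, read 2179 and 1574 in Hox13dKO, against 1324 and 889 in wild type (0.77 ± 0.23 SE; adjusted p = 0.496).

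Cells that travel in or around vessels were read by their own lists, because several members are shared with them, such as Icam2, Esam and Vwf with platelets and Fli1 with blood cells. Levels are given as the geometric mean signal over a list's measured genes, and the endothelial list stood at 433 and 446 in Hox13dKO, against 370 and 399 in wild type. As a plain sum its signals were 27896 and 27546 in Hox13dKO, against 27165 and 25059 in wild type. The brightest members weigh most in that sum. Ets2 gave 7133 and 7152 of it in Hox13dKO, against 6732 and 5858 in wild type. Aplnr gave 4516 and 4171 in Hox13dKO, against 5333 and 4212 in wild type. The 14 macrophage markers, 13 of them measured, stood at 183 and 184 in Hox13dKO, against 130 and 136 in wild type, with 0 past the threshold and the largest log2 differences in C1qa (2.02 ± 0.79 SE, 1 wild-type array at the floor) and Mrc1 (1.30 ± 0.24 SE; adjusted p = 0.119). Over the 13 the difference was positive for 10 (76.9%, beside 45.8% of all genes), with a median of 0.38. Both Hox13dKO arrays were higher for 6 (46.2%, beside 17.1%) and lower for 0 (beside 20.1%). The general macrophage markers Csf1r, at -0.03 ± 0.19, and Adgre1, at 0.04 ± 0.30, lay near 0. Cx3cr1 was not measured. C1qa and Mrc1 belong to tissue macrophages, and Mrc1 also to some endothelium. The erythroid list, 12 of 16 measured, stood at 1058 and 896 in Hox13dKO, against 647 and 933 in wild type, with 0 past the threshold, Alas2 at 1.13 ± 0.32 and Slc4a1 at 0.87 ± 0.26. Over the 12 the difference was positive for 9 (75%, beside 45.8% of all genes), with a median of 0.37. Both Hox13dKO arrays were higher for 6 (50%, beside 17.1%) and lower for 2 (16.7%, beside 20.1%). The globin genes ran from -0.93 for Hba-a2 to 0.33 for Hbb-bh1. The level of the erythroid list overlapped between the groups, and wild type replicate 1 was the lowest array here as in the endothelial list.

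Platelet and megakaryocyte markers, 5 of 8 measured, stood at 384 and 315 in Hox13dKO, against 340 and 388 in wild type, with 0 past the threshold, Pf4 at -0.25 ± 0.20 and Ppbp at -0.22 ± 0.29. The platelet arrays of the groups overlapped. The pericyte and smooth muscle list, 9 of 12 measured, stood at 198 and 319 in Hox13dKO, against 222 and 180 in wild type, with 0 past the threshold, Acta2 at 1.17 ± 0.37 and Pdgfrb at 0.56 ± 0.23. Over the 9 the difference was positive for 6 (66.7%, beside 45.8% of all genes), with a median of 0.19. Both Hox13dKO arrays were higher for 2 (22.2%, beside 17.1%) and lower for 1 (11.1%, beside 20.1%). The lowest difference was that of Tagln at -0.51 ± 0.47. Muscle progenitor genes, which like endothelium reach the limb from the somites, stood at 148 and 268 in Hox13dKO, against 83.8 and 78.6 in wild type over 9 of 10 genes. Of these Actc1 passed upward (3.76 ± 0.41 SE, adjusted p = 0.0182) and 0 passed downward. Myog, with 1 wild-type array at the floor, had a log2 difference of 3.54 ± 0.67. The difference was positive for 7 of the 9 (45.8% of all genes), with a median of 1.23. Both Hox13dKO arrays were higher for 7 (17.1% of all genes) and lower for 1 (20.1%). Pax3, at -1.16 ± 0.88 with 1 Hox13dKO array at the floor, and Met, at -0.25 ± 0.26, were negative. Limb ectoderm genes (10 of 10) stood at 630.1 and 779 in Hox13dKO, against 743 and 687 in wild type, with 0 past, Krt8 at -0.61 ± 0.21 and Krt5 at 0.53 ± 0.24. The part of these cell types in the endothelial values was not tested.

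**Figure D5:**
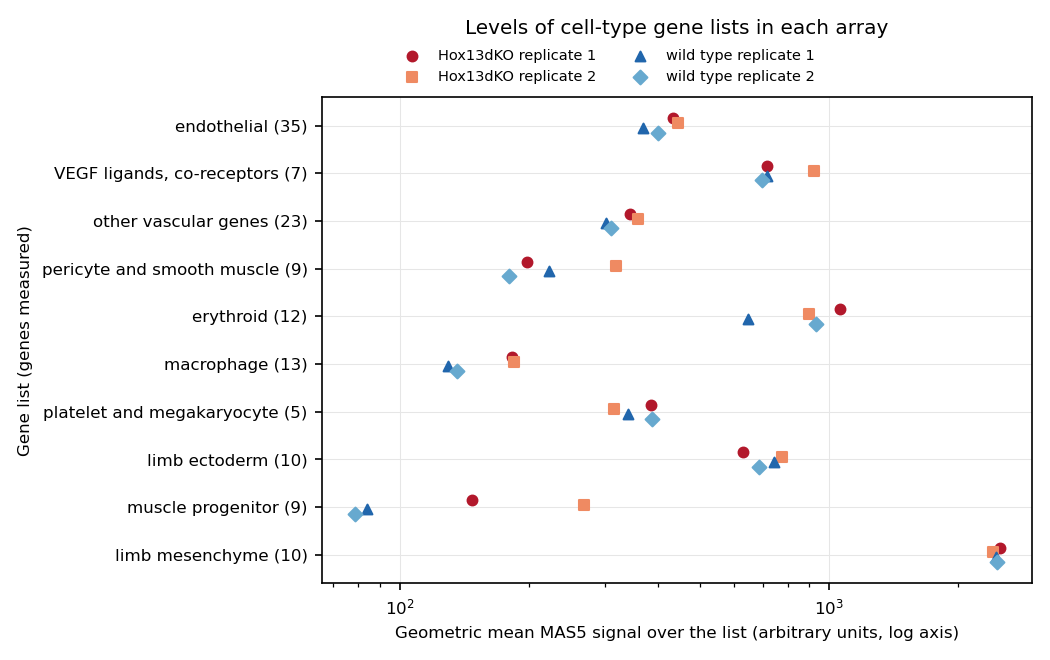
Geometric mean MAS5 signal (arbitrary units, log axis) of each gene list in the 2 Hox13dKO arrays (red circle, orange square) and the 2 wild-type arrays (dark blue triangle, light blue diamond), with the number of genes measured in brackets; levels of different lists are not comparable with each other. The endothelial, other vascular, macrophage and muscle progenitor lists have both Hox13dKO points right of both wild-type points, and the limb mesenchyme list has all 4 points between 2411 and 2496.

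The limb mesenchyme genes read above the signal floor on every array. The 10 limb mesenchyme genes had geometric means of 2496 and 2411 in Hox13dKO, against 2444 and 2462 in wild type. Of these 0 passed the threshold, and the lowest p were those of Col2a1 (0.61 ± 0.14 SE) and Prrx1 (0.48 ± 0.16 SE). The difference was positive for 5 and negative for 5, with a median of -0.03. Both Hox13dKO arrays were higher for 2 (20%, beside 17.1% of all genes) and lower for 3 (30%, beside 20.1%). The 3 lower ones were Msx1 (-0.35 ± 0.15 SE), Hand2 (-0.53 ± 0.23 SE) and Prrx2 (-0.21 ± 0.12 SE). The deleted Hoxd13 read 5.79 and 9.58 in Hox13dKO, against 14540.4 and 16116.5 in wild type. Hoxd12 read 5.23 and 33.5 in Hox13dKO, against 1208 and 2171 in wild type. Hoxa13 read 52.4 and 58.0 in Hox13dKO, against 842 and 1463 in wild type. Hoxd11 kept signals of 348 and 454 in Hox13dKO, against 1831 and 1745 in wild type, and where its probes lie relative to the deletion was not tested. Among all 27022 probe sets tested, 56 (0.207%) passed, 31 higher and 25 lower. Correlations of log2 signal were 0.962 between the Hox13dKO arrays, 0.958 between the wild-type arrays and 0.951 to 0.962 between groups.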

How the data were processed

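Total RNA of 4 samples, 2 per group, was read on Affymetrix arrays. The deposited values are intensity per probe set on a linear scale, made by the authors with MAS5 per the submitters' processing notes, which as used here give no version; the 2% trimmed mean was 500.003 on each array. Detection calls were not used here, and the number of arrays limits the precision.

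Of 45101 probe sets, 34958 carried 1 gene symbol, 932 several and 9211 none; 2 of those with several name an endothelial gene and were not used. The 64 control probe sets were left out. Signals below the 20th percentile (14.1) were set to that value before taking log2. The 60% of probe sets with the highest mean log2 signal (geometric mean from 39.6 up) were tested with limma 3.58.1 in R 4.3.3 (lmFit and trended eBayes, two-sided tests). P-values were adjusted by Benjamini-Hochberg across the 27022 probe sets, with a threshold of 0.05. Adjusted p, SE and 95% intervals in the text are from this fit, with 2 residual and 6.05 prior degrees of freedom. The steps were tested on simulated data. P-values rest on the spread between these samples and, through the moderated error, on that of other probe sets of like signal. Members, roles and lists were chosen with earlier results of these data known. All members are named, and of each other list those past the threshold and the 2 of lowest p. Vegfa, Pgf, Nrp1, Nrp2, Tal1, Csf1r, Adgre1, Hba-a2, Hbb-bh1, Tagln, Pax3, Met, Msx1, Hand2 and Prrx2 were added after their values were seen. Alternatives covered normalization, floor, filter, variance model, replicate block, probe set choice, threshold and leaving out each array. Figures were drawn with matplotlib 3.10.9.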

Additional observations from a re-analysis of the deposited data

How the results depend on the processing

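The log2 difference of an endothelial gene was other than in the fit reported for 261 pairs of a gene with an alternative setting, and of these 239 kept the direction and 22 did not. With 1 array left out, the log2 difference changed sign for 16 genes: Angpt2 (-1.31 to 0.093), Aplnr (-0.30 to 0.043), Arhgef15 (-0.24 to 0.89), Cd34 (-0.019 to 0.084), Cldn5 (-0.29 to 0.55), Ecscr (-0.11 to 0.44), Egfl7 (-0.071 to 0.38), Emcn (-0.19 to 0.20), Eng (-0.019 to 0.18), Fli1 (-0.45 to 0.22), Lyve1 (-0.21 to 2.08), Mmrn2 (-0.59 to 0.22), Nos3 (-0.29 to 0.17), Rasip1 (-0.21 to 0.32), Robo4 (-0.071 to 0.28) and Tek (-0.26 to 0.41). Of genes that kept their sign, Pecam1 ran from 0.12 to 0.73, Vwf from 0.20 to 1.06 and Kdr from 0.44 to 1.06. Averaged over probe sets, Egfl7 was -0.051 and Fli1 0.026. Over all settings 14 genes stayed positive, 5 stayed negative and 16 took both signs.

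The count of endothelial genes past the threshold was 1 with the replicate block, 0 to 1 with an array left out, and 0 in every other setting. That gene was Sox18 each time (adjusted p = 0.0206 with the replicate block). The differences between replicates 1 and 2 correlated between the groups at r = 0.198 across probe sets, a single pairing. The median signal over all probe sets was 65.9 (Hox13dKO) and 65.6 (wild type) in replicate 1, and 80.9 and 85.4 in replicate 2. Log2 signals of the replicate 1 arrays correlated at 0.962 between the groups, and those of the replicate 2 arrays at 0.954. Nothing in the labels says that a number marks a shared litter or day. The count over all probe sets was 214 after median centring, 0 with no filter (3159 at an unadjusted p under 0.05), 1 with no intensity trend, 418 with the replicate block, 111 at an adjusted p of 0.10, and 11 to 525 with an array left out. The endothelial median was 0.19 after median centring, when that of all genes was 0.008, and 0.11 to 0.20 with an array left out. The number with both Hox13dKO arrays above both wild-type arrays, an alternative count added after the data were seen, was 13 after quantile normalization (17.4% of all genes) or median centring (13.3%), and 15 to 18 with an array left out (30.3 to 33.2% of all genes, since 1 group then has a single array). Without probe sets whose names end in _x_at, _s_at or _a_at, 29 genes were measured, and with the stricter filter 31. With 1 array left out, the lone array is assumed to vary like the other group. Signals near the floor, as for Lyve1, cannot be set against a measured background.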
